A study of Mus musculus with 59 samples.

Results

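Gene expression was compared between the paraventricular nucleus (PVN) and the arcuate nucleus (ARC) of the mouse hypothalamus in animals that received vehicle. The members are the libraries whose titles name vehicle and one of these nuclei, 10 for PVN and 9 for ARC, 19 of the 59 libraries in the series. All came from brains of C57BL/6 mice, a common inbred strain, killed 4 h after an intraperitoneal injection. The series title speaks of obese-diabetic mice, but the labels of these libraries give the strain alone, with no age, sex, diet or genetic change. Brains were snap-frozen and cut at 10 µm, and laser capture took 4 mm² per area, so a library holds all the cells that lay in the captured tissue. The remaining libraries came from the nucleus of the solitary tract and from mice given the peptides IP118/PY115. Each area was taken from each animal, but the labels do not tie libraries to animals. PVN and ARC pieces came from shared animals, so the p-values, which take the 19 libraries as independent, measure the spread between these libraries.

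The PVN lies beside the third ventricle and is the main output station of the hypothalamus. Its large magnocellular neurons send vasopressin and oxytocin to the posterior pituitary, and its small parvocellular neurons release corticotropin-releasing and thyrotropin-releasing hormones that drive the stress and thyroid axes. The ARC lies at the base of the ventricle, next to a leaky capillary bed, and samples circulating hormones such as leptin, ghrelin and insulin. Its neurons making agouti-related peptide and neuropeptide Y promote feeding, those making proopiomelanocortin suppress it, and both act on melanocortin receptors in the PVN.

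Libraries are numbered within each nucleus in the order of deposit. Library totals ran from 3964093 to 16244376 counts in PVN and from 4546257 to 11995799 in ARC. The mean log10 total differed by -0.0481, PVN minus ARC, which an exact two-sided permutation test did not detect (p = 0.536). Against the treated libraries of the same nucleus, vehicle library 1 of each nucleus lay on the treated side. On a scale where −1 is the mean of the other vehicle libraries and 1 that of the treated ones, over the 50 genes of smallest p in a fit without the library placed, it was at 0.954 in PVN and 1.26 in ARC. The other vehicle libraries lay between -1.82 and -0.368 in PVN and between -1.61 and -0.376 in ARC. Leaving both out changed the counts of called genes given next by less than 1.5 times, to 2938 and 2556. No library stood with the other nucleus: the first principal component, 60.8% of the variance of log2 levels, separated all 10 PVN libraries from all 9 ARC libraries. PVN libraries 10 and 8 stood apart from the other PVN libraries on later components, and without each the calls were 3188 and 3251 (PVN library 10) and 3034 and 2879 (PVN library 8), PVN first.

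A gene was called when the quasi-likelihood test of edgeR gave a Benjamini-Hochberg adjusted p (FDR) under 0.05. Of 13457 genes tested, 5806 (43.1%) were called, 3153 (23.4%) higher in PVN and 2653 (19.7%) higher in ARC. Most of these differences were small. The median called gene differed by 1.39-fold, 1703 called genes differed by less than 1.25-fold, and 93 differed by 16-fold or more, 52 of them higher in PVN. A test against a 2-fold difference passed 754 genes (5.6%), 423 higher in PVN (3.14%) and 331 higher in ARC (2.46%), and these are called past 2-fold below. In 675 of the 754 the libraries of the 2 nuclei did not overlap, against 1638 of all genes tested (12.2%). The 2-fold test used the same libraries, so this share follows in part from the choice of genes and is no separate support. The balance of the 2 directions depended on scaling: with library totals alone in place of TMM factors, 2543 genes were called higher in PVN and 3504 higher in ARC, and 389 and 352 passed 2-fold. The median log2 difference of all genes tested was 0.01 with TMM and -0.05 with library totals alone.

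**Figure D1:**
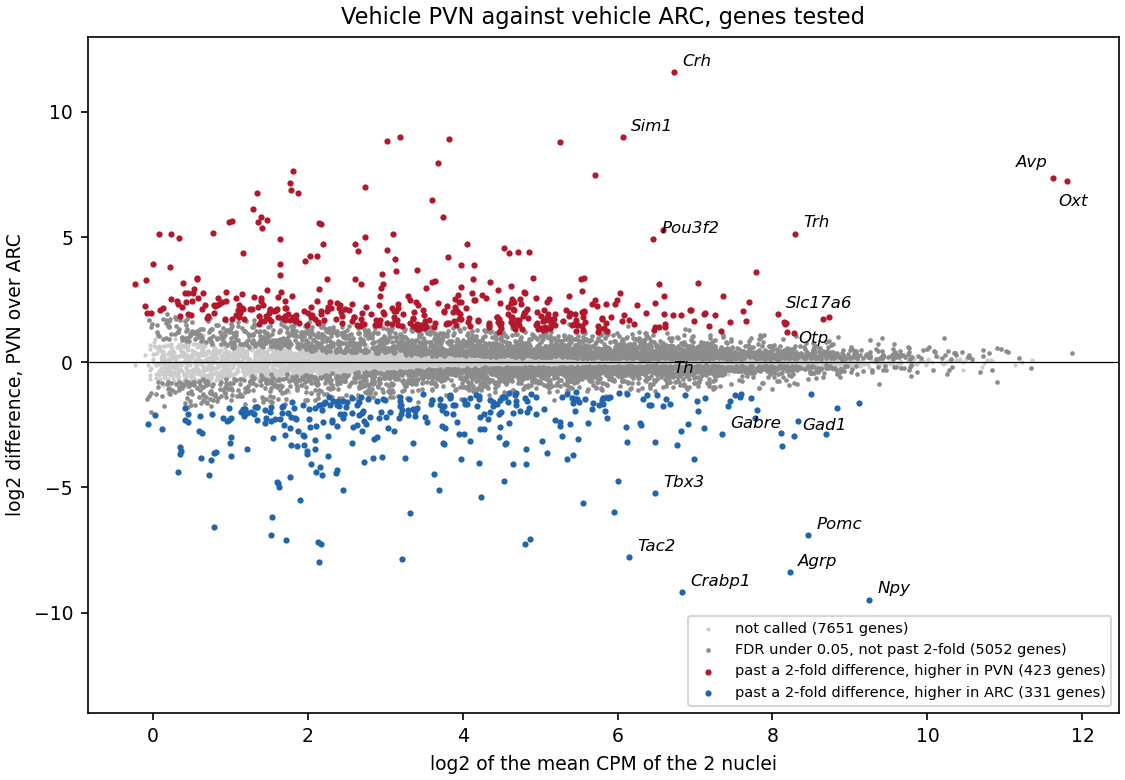
Each point is 1 of the 13457 genes tested, placed by the log2 of its mean CPM over the 2 nuclei (x axis) and its log2 difference, PVN over ARC (y axis). Red points (423) and blue points (331) are past a 2-fold difference in the direction of PVN and of ARC. Crh lies at the top, Avp and Oxt at the upper right, and Npy, Agrp and Crabp1 at the bottom, while genes near 0 on the y axis fill the whole range of levels.

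Levels are in CPM, counts per 1000000 of the TMM-scaled library, given as the range over the 10 PVN and 9 ARC libraries or as mean ± SD. Log2 differences are PVN over ARC ± SE, so that positive values mean higher in PVN. The genes that define PVN output neurons separated the dissections. Crh, which encodes corticotropin-releasing hormone, the start of the stress axis, ran from 154 to 315 CPM (median 204) in PVN and from 0 to 0.178 CPM (median 0) in ARC. Every PVN library was far above every ARC library, and the fitted difference (11.58 ± 0.27, FDR = 2.1e-20) rests on 5 counts summed over ARC. Trh, the gene of thyrotropin-releasing hormone, ran from 493 to 787 CPM (median 594) in PVN and from 8.86 to 28.2 CPM (median 16.4) in ARC. Its groups did not overlap either, with PVN higher by 35.2-fold (5.14 ± 0.19).

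Avp and Oxt, the vasopressin and oxytocin genes, were among the highest of all genes in PVN. Avp ran from 3087 to 12760.0 CPM (median 5366) in PVN and from 0 to 225 CPM (median 3.77) in ARC. Oxt ran from 4454 to 8928 CPM (median 7759) in PVN and from 0.432 to 225 CPM (median 1.98) in ARC. The groups did not overlap, although the ARC values spread widely: ARC library 9 stood highest for both genes, at 224.6 CPM of Avp and 225.1 CPM of Oxt, while the median ARC library held a few CPM. ARC libraries 1 (46.1 CPM of Avp and 119.9 of Oxt) and 4 (50.3 and 56.7 CPM) came next. ARC library 9 held Crh at 0.0928 CPM and Sim1 at 0.371 CPM, ARC library 1 at 0.178 and 1.07 CPM, and ARC library 4 at 0 and 0.164 CPM. The fitted differences were 7.37 ± 1.06 for Avp and 7.23 ± 1.04 for Oxt, and 8.76 ± 0.91 and 8.14 ± 0.99 without ARC library 9. Per kilobase of exon, a scale on which genes can be compared, PVN held 10848 CPM of Avp, 13195 CPM of Oxt, 439 CPM of Trh and 161 CPM of Crh. Oxt (chr2:130576173-130577054) and Avp (chr2:130580620-130582554) are neighbours that share a near-identical neurophysin exon, so reads from that exon could be split between them by the authors' counting.

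Transcription factors that build the PVN went the same way. Sim1, without which the PVN does not form, ran from 110.4 to 158 CPM (median 139.8) in PVN and from 0 to 1.07 CPM (median 0.132) in ARC (9.01 ± 0.24; 9.87 ± 0.21 without ARC library 1, the highest in ARC). Its groups were far apart in every library. Its partner Arnt2 was higher in PVN by a smaller factor (663 ± 70.2 against 189 ± 10.8 CPM), and the POU factor Pou3f2, which acts after Sim1, by a larger one (171 ± 23.3 against 5.58 ± 1.04 CPM, 4.93 ± 0.11). Otp, a homeobox gene that the same lineage needs, differed less: it ran from 269 to 404 CPM (median 365) in PVN and from 202 to 297 CPM (median 248) in ARC, and the groups overlapped (0.54 ± 0.08, FDR = 1.4e-06), so Otp was called but did not pass 2-fold. In all, 9 of the 10 listed PVN genes were called higher in PVN, and Sst was called higher in ARC. The somatostatin gene Sst, which restrains growth hormone, stood at 273 ± 116 CPM in PVN against 838 ± 111 in ARC.

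The ARC feeding peptides gave the opposite picture. Agrp, the gene of the hunger peptide that blocks melanocortin receptors, ran from 0.502 to 2.83 CPM (median 1.63) in PVN and from 485 to 981 CPM (median 514) in ARC. Npy, made by the same neurons, ran from 0.502 to 10.2 CPM (median 1.06) in PVN and from 908 to 1913 CPM (median 1099.8) in ARC. Pomc, the precursor of the melanocortin satiety peptides, ran from 4.4 to 8.2 CPM (median 5.65) in PVN and from 578 to 924 CPM (median 679.6) in ARC. None of these overlapped, and the log2 differences were -8.38 ± 0.21, -9.48 ± 0.35 and -6.90 ± 0.13. The highest PVN library for Npy was library 3, at 10.2 CPM, against at most 3.93 CPM in the other 9. Pituitary hormone genes, a possible companion of tissue from the base of the brain, were near 0 in PVN (at most 0.702 CPM summed over 9 genes) and reached 76.6 and 34.2 CPM in ARC libraries 4 and 2. Pomc, also a pituitary gene, stood at 679.6 and 784.6 CPM in those ARC libraries, inside the range of the other ARC libraries.

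Of 15 listed ARC genes 14 were tested, and of these 13 were called higher in ARC and 12 passed 2-fold. Kiss1, the other listed gene, was not analysed here. Tac2, which encodes neurokinin B and marks the neurons that pace reproductive hormone release, stood at 0.755 ± 0.678 CPM in PVN against 141 ± 24.6 in ARC (-7.79 ± 0.22). Ghrh, the growth hormone-releasing hormone gene, stood at 5.2 ± 2.68 CPM in PVN against 76.4 ± 11.7 in ARC (-3.87 ± 0.21). Cartpt, a peptide gene of satiety neurons, was higher in ARC by 3.38-fold and was also plainly present in PVN (78.3 ± 13.5 against 265 ± 45.8 CPM). Th, the first enzyme of dopamine synthesis, was called higher in ARC by 1.6-fold with overlapping groups (75.4 ± 17.5 against 121 ± 22.9 CPM, FDR = 1.9e-04). Nhlh2, a basic helix-loop-helix factor, was the listed ARC gene that was called higher in PVN (0.51 ± 0.09).

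**Figure D2:**
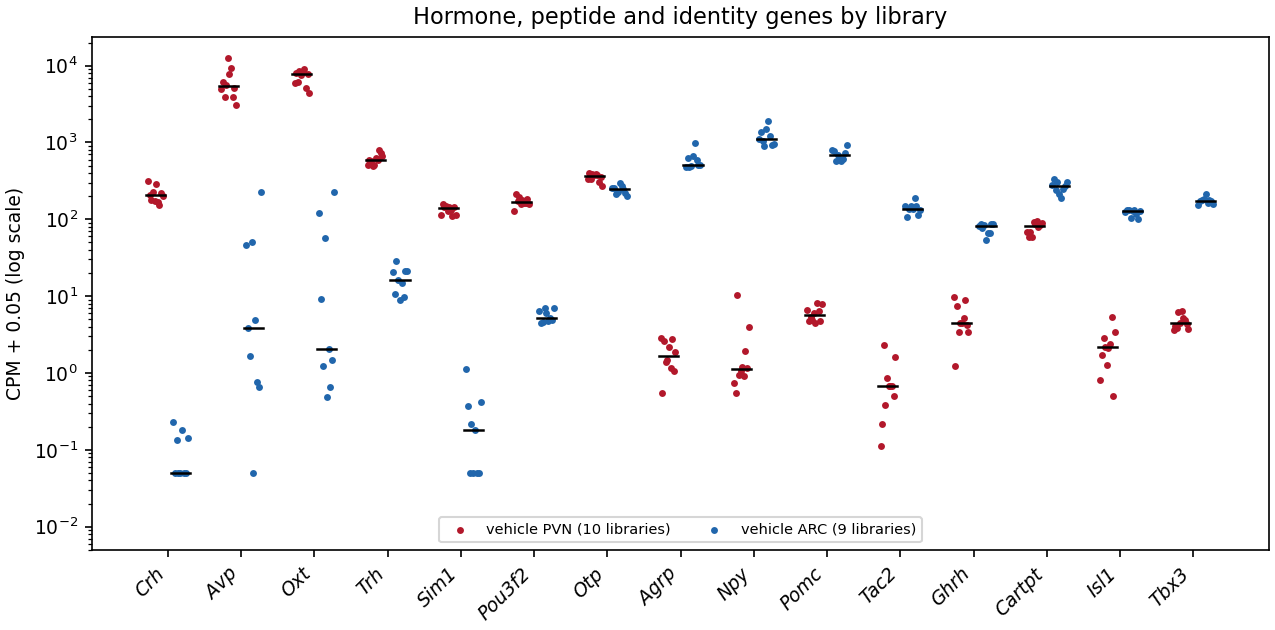
Each point is 1 library, its CPM plus 0.05 on a log axis (y axis) for 15 genes (x axis); red points are the 10 PVN libraries, blue points the 9 ARC libraries, and black bars the medians. The red and blue points of Otp overlap and those of the other 14 genes do not, and the ARC points of Avp and Oxt are the most spread.

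To show the DNA beside these levels, the 250 bases before the RefSeq start (GRCm38.p6, read on the strand of the gene) are printed for 3 PVN hormone genes and 2 ARC peptide genes that the contrast turns on. Short motifs of factors that differ between the nuclei were searched on both strands: TGACCT (nuclear receptor half-site), TACGTG (SIM1 with ARNT2), GGTGTG (T-box), CAAGTG (NKX2-1), TAATTA (homeodomain) and ATAAA (TATA-like). Capitals mark the matches found, and no printed match overlaps another.
Oxt (chr2:130575919-130576168, plus strand): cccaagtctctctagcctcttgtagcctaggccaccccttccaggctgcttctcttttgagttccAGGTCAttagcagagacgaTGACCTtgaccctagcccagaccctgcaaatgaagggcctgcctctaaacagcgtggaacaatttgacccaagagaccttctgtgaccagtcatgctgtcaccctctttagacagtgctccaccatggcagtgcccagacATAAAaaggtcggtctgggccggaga
Avp (chr2:130582589-130582838, minus strand): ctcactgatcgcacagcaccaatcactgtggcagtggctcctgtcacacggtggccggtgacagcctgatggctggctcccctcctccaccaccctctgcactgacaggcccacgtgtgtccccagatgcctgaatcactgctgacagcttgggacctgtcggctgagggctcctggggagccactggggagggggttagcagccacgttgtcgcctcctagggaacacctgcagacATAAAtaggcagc
Trh (chr6:92244651-92244900, minus strand): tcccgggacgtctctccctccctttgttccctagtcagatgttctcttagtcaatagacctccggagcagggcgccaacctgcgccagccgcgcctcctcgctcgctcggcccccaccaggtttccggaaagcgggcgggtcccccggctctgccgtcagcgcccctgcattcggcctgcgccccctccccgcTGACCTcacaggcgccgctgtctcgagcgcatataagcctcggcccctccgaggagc
Npy (chr6:49822460-49822709, plus strand): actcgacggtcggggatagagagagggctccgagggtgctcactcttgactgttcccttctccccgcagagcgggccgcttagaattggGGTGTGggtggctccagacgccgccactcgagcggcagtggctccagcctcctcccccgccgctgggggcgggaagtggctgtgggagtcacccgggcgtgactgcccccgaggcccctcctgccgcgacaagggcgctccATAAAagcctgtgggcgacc
Pomc (chr12:3954695-3954944, plus strand): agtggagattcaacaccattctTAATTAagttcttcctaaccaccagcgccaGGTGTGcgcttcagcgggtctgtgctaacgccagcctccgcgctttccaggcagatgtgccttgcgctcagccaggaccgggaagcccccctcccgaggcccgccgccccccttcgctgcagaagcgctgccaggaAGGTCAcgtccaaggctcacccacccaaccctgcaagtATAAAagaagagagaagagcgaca
Oxt holds 2 copies of the nuclear receptor half-site, in opposite orientations, that start 185 and 166 bases before the start, Trh 1 copy at 57 bases and Pomc 1 copy at 62 bases. TGACCT lies in 13.8% of the 27025 promoters of this length, in 10.2% of the 10572 matched promoters of genes tested, in 12% of the 291 of genes past 2-fold in PVN and in 12.4% of the 259 in ARC. The T-box letters GGTGTG occur in Npy and Pomc and in 14.9% of the promoters of genes tested (16.2% of all), the homeodomain letters TAATTA in Pomc and in 2.18% (4.9%), and ATAAA in Oxt, Avp, Npy and Pomc and in 22.9% (38.1%). TACGTG (3% of genes tested, 2.68% of all) and CAAGTG (9.33% and 11.6%) were not in these 5 windows. No motif was tested, and a match describes letters only.

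Neuropeptide genes as a class often differed. Of 30 tested precursors, those above included, 12 were called higher in PVN and 14 in ARC, and 20 passed 2-fold (9 and 11), or 66.7% against 5.6% of all genes tested. Their median log2 difference was -0.62, against 0.01 for all genes tested. On the PVN side, Ucn3, which encodes the stress peptide urocortin III, ran from 7.36 to 29.8 CPM with 1612 counts in all, against 2 counts summed over the 9 ARC libraries. Nxph4, a neurexophilin, stood at 76.5 ± 15.8 CPM in PVN against 0.175 ± 0.179 in ARC. Galanin, a peptide of feeding and arousal, was on the ARC side: Gal ran from 33.7 to 55.7 CPM (median 39.3) in PVN and from 100.1 to 153 CPM (median 132) in ARC, with no overlap (-1.70 ± 0.09). Pdyn, the dynorphin precursor, was high in both (257 CPM in PVN and 203 in ARC), and its small call (0.34 ± 0.13, FDR = 0.0347) was lost in 11 of the 19 fits that left out 1 library.

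Receptors for peptides and hormones split between the nuclei. Of 62 tested, 22 were called higher in PVN and 28 in ARC, and 25 passed 2-fold (9 and 16), 40.3%. The melanocortin receptors went in opposite directions. Mc3r ran from 2.1 to 5.1 CPM (median 3.15) in PVN and from 48.6 to 64 CPM (median 51.5) in ARC, and Mc4r, the receptor whose loss causes obesity, ran from 12.9 to 19.4 CPM (median 15.3) in PVN and from 4.38 to 7.26 CPM (median 6.23) in ARC. Neither overlapped, Mc3r being higher in ARC (-4.07 ± 0.12) and Mc4r in PVN (1.35 ± 0.12). Within a library the ratio of Mc4r to Mc3r CPM ran from 3 to 8.12 in PVN and from 0.0814 to 0.144 in ARC.

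Several of these receptors, linked to feeding, were higher in ARC. Ghsr, the ghrelin receptor, ran from 4.84 to 8.8 CPM (median 6.39) in PVN and from 37.6 to 90.9 CPM (median 55.5) in ARC (-3.13 ± 0.15). Lepr, the leptin receptor, ran from 1.44 to 3.15 CPM (median 2.39) in PVN and from 8.44 to 20.7 CPM (median 15.3) in ARC (-2.62 ± 0.18). Npy2r, the receptor for the gut peptide PYY and an autoreceptor of NPY neurons, ran from 19.5 to 52.1 CPM (median 27.5) in PVN and from 157 to 245 CPM (median 201) in ARC (-2.75 ± 0.16). None of these groups overlapped. Npy5r (log2 difference -2.65) and the corticotropin-releasing hormone receptor gene Crhr1 (-3.26) were also past 2-fold in ARC. Glp1r, the receptor for glucagon-like peptide 1, which the series title names beside PYY, was low in both nuclei and ran from 5.26 to 24.6 CPM (median 15.9) in PVN and from 5.81 to 18 CPM (median 7.57) in ARC. Its groups overlapped and its call (0.70 ± 0.27, FDR = 0.0433) did not hold in 14 of the 19 fits that left out 1 library, where FDR reached 0.0938.

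Other receptors were higher in PVN. Cckar, a receptor for the gut satiety hormone cholecystokinin, ran from 26.7 to 74.2 CPM (median 42) in PVN and from 7.84 to 12.5 CPM (median 10.7) in ARC (2.13 ± 0.16). Grpr, the receptor for gastrin-releasing peptide, was also past 2-fold in PVN (1.74 ± 0.27), while the second cholecystokinin receptor gene Cckbr (0.80) and the calcitonin receptor gene Calcr (0.31) were called there without passing 2-fold. Galr1, a galanin receptor, stood at 11.8 ± 2.54 CPM in PVN against 0.438 ± 0.356 in ARC (4.71 ± 0.27), while its ligand gene Gal was higher in ARC. Rxfp3, the relaxin-3 receptor, stood at 50.3 ± 11.4 CPM in PVN against 2.33 ± 1.16 in ARC (4.42 ± 0.22), and Rxfp1, another relaxin-family receptor, lay on the ARC side (1.19 ± 2.2 CPM in PVN against 36.5 ± 7.81 in ARC). Without PVN library 3, whose 7.39 CPM stood apart from at most 1.26 CPM in the other 9, the difference of Rxfp1 went from -5.40 to -6.15. Npffr1, a receptor for RFamide peptides (1.80 ± 0.10), and Igf1r, the insulin-like growth factor receptor (1.29 ± 0.07), were also past 2-fold in PVN. Without a call were the neurotensin receptor gene Ntsr2 (117 CPM in PVN and 119.8 in ARC), Sstr1 (47.9 CPM in PVN and 54.1 in ARC) and the vasopressin receptor gene Avpr1a (9.1 CPM in PVN and 7.93 in ARC).

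Factors that pattern the hypothalamus often differed. Of 79 tested patterning and identity factors, 43 were called higher in PVN and 27 in ARC, and 49 passed 2-fold (27 and 22), 62%. On the PVN side Fezf2, a zinc-finger factor of the forebrain, ran from 15.3 to 29.8 CPM (median 23.6) in PVN and from 0 to 0.738 CPM (median 0.185) in ARC. Among other regulators there, Uncx stood at 25.5 ± 11 CPM in PVN against 0.0761 ± 0.141 in ARC, Ebf3 at 104 ± 26.9 CPM in PVN against 0.516 ± 0.488 in ARC, Prdm8 at 26.5 ± 8.13 CPM in PVN against 0.441 ± 0.231 in ARC and Bhlhe22 at 32 ± 6.35 CPM in PVN against 1.15 ± 0.523 in ARC. All 5 were at or near 0 in ARC, and the Uncx difference was 7.96 ± 0.44, or 8.92 ± 0.48 without ARC library 4, which had the highest ARC level.

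On the ARC side Nkx2-1, the homeobox gene that sets up the ventral hypothalamus, ran from 0 to 1.004 CPM (median 0.312) in PVN and from 44.4 to 67.9 CPM (median 52.4) in ARC. Tbx3, a T-box gene that maintains the identity of ARC peptide neurons, ran from 3.58 to 6.32 CPM (median 4.36) in PVN and from 151 to 212 CPM (median 175) in ARC. Bsx, which drives Agrp and Npy expression, ran from 0 to 1.68 CPM (median 0.321) in PVN and from 51.1 to 62.8 CPM (median 59.7) in ARC, and Isl1, needed for Pomc expression, ran from 0.457 to 5.26 CPM (median 2.1) in PVN and from 102 to 134 CPM (median 127) in ARC. The groups were apart for all 4, with log2 differences of -7.25 ± 0.18, -5.22 ± 0.10, -7.07 ± 0.18 and -5.97 ± 0.21. Nr5a2, an orphan nuclear receptor, differed by -4.74 ± 0.24. Peg3, an imprinted zinc-finger gene that is among the highest of the list, did not differ by the test (1846 CPM in PVN and 1799 in ARC, 0.04 ± 0.06).

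Genes with counts in every library of one nucleus and almost none in the other were few. With at least 1 CPM in every library of a nucleus and at most 3 counts summed over the other, 5 genes were found in PVN and 4 in ARC, a search made after the values were seen. Those in PVN were Ucn3, C1ql4, Tyrp1, Dnajc22 and Mab21l2, with 2, 2, 2, 3 and 3 counts over ARC. Those in ARC were Htr3b, Hmx2, Sox14 and Foxd2, with 2, 3, 3 and 2 counts over PVN. C1ql4, a secreted synaptic C1q-like protein gene, stood at 16.3 ± 3.16 CPM in PVN, and Htr3b, a subunit of the serotonin-gated channel, at 8.87 ± 2.36 CPM in ARC.

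Other genes among the 15 largest differences in each direction have varied roles. In PVN these included Rufy4, an autophagy-linked adaptor gene (28.3 CPM in PVN and 0.0394 in ARC; log2 difference 8.93, 10.07 without ARC library 1), Nrn1, the neurite-promoting neuritin (187 CPM in PVN and 4.49 in ARC; 5.29, 6.01 without ARC library 8) and Asic4, of the acid-sensing channel family (44.4 CPM in PVN and 1.88 in ARC). In ARC they included Crabp1, a retinoic acid binding protein (from 0 to 1.26 CPM (median 0.453) in PVN and from 168 to 264 CPM (median 234) in ARC), and Acvr1c, an activin-type receptor (1.94 CPM in PVN and 91.9 in ARC). Shisal2b (0.767 CPM in PVN and 25.1 in ARC), the membrane-contact protein gene Esyt3 (4.53 CPM in PVN and 123 in ARC) and the RNA-export factor gene Nxf3 (1.01 CPM in PVN and 23.7 in ARC) complete the ARC side. All groups of these 8 genes were apart, which the rule that chose them required.

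Steroid receptors separated by type. Of 17 tested nuclear receptors, 6 were called higher in PVN and 5 in ARC, with 4 past 2-fold (1 and 3), 23.5% against 5.6% of all genes tested. Esr1, estrogen receptor alpha, ran from 8.36 to 19.4 CPM (median 13.9) in PVN and from 95.3 to 156 CPM (median 125) in ARC, and Esr2, estrogen receptor beta, ran from 2.95 to 10.9 CPM (median 6.14) in PVN and from 0 to 1.51 CPM (median 0.34) in ARC. The first was higher in ARC (-3.17 ± 0.11) and the second in PVN (3.92 ± 0.37), without overlap. The ratio of Esr1 to Esr2 CPM ran from 1.13 to 6.57 in PVN and from 84.9 to 1358 in the 8 ARC libraries where it could be formed. Esr2 was near 0 in ARC (0.0891 CPM in ARC library 1, which gave the 1358), so the ARC ratios rest on few Esr2 counts. The progesterone receptor gene Pgr (23.8 ± 2.58 against 65.4 ± 8.58 CPM) and the retinoic acid receptor gene Rarb (4.2 ± 1.23 against 15.5 ± 2.28 CPM) were also past 2-fold in ARC. Nr3c1, the glucocorticoid receptor that closes the stress-hormone loop, was not called (238 ± 70.6 CPM in PVN against 191 ± 20.4 in ARC, FDR = 0.0974; FDR = 0.0108 without PVN library 1), while Nr3c2, the mineralocorticoid receptor, was called higher in PVN (0.99 ± 0.12).

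The dissections differed in transmitter type. Most PVN output neurons use glutamate and many ARC neurons use GABA. Slc17a6, the vesicular glutamate transporter of the hypothalamus, ran from 337 to 577 CPM (median 421) in PVN and from 74.2 to 137 CPM (median 119) in ARC. Slc32a1, the vesicular GABA transporter, ran from 22.9 to 75.7 CPM (median 33.6) in PVN and from 176 to 265 CPM (median 240.4) in ARC, and Gad1, the GABA-synthesizing enzyme, ran from 40.8 to 124 CPM (median 64.2) in PVN and from 485 to 599 CPM (median 559) in ARC. All 3 were past 2-fold without overlap (1.92 ± 0.11, -2.62 ± 0.20 and -2.94 ± 0.20). Within a library the ratio of Slc17a6 to Slc32a1 CPM ran from 5.51 to 18.4 (median 12.2) in PVN and from 0.299 to 0.75 (median 0.491) in ARC, with PVN libraries 8, 10 and 3 having the most Slc32a1 in PVN. Gad2 differed less (-0.91 ± 0.11).

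Of 19 transmitter genes tested, 6 were called higher in PVN and 12 in ARC, 2 and 8 of them past 2-fold. Nos1, nitric oxide synthase, which magnocellular neurons are known for, was the other past 2-fold in PVN (194 ± 31.7 against 61 ± 9.92 CPM). In ARC, genes of the dopamine neurons that restrain prolactin were prominent: the dopamine transporter Slc6a3 stood at 2.17 ± 0.881 CPM in PVN against 34.9 ± 12.8 in ARC, the vesicular monoamine transporter Slc18a2 at 9.07 ± 2.53 CPM in PVN against 68.6 ± 11.2 in ARC and the decarboxylase Ddc at 42.3 ± 6.27 CPM in PVN against 96.3 ± 11.2 in ARC. Slc18a3, the vesicular acetylcholine transporter, ran from 0 to 0.251 CPM (median 0) in PVN and from 15.5 to 22.5 CPM (median 17.7) in ARC, so that ARC stood apart (-7.85 ± 0.27; -8.81 ± 0.27 without PVN library 1). It lies within an intron of the choline acetyltransferase gene on the same strand, so reads of the pair could be exchanged by counting.

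**Figure D3:**
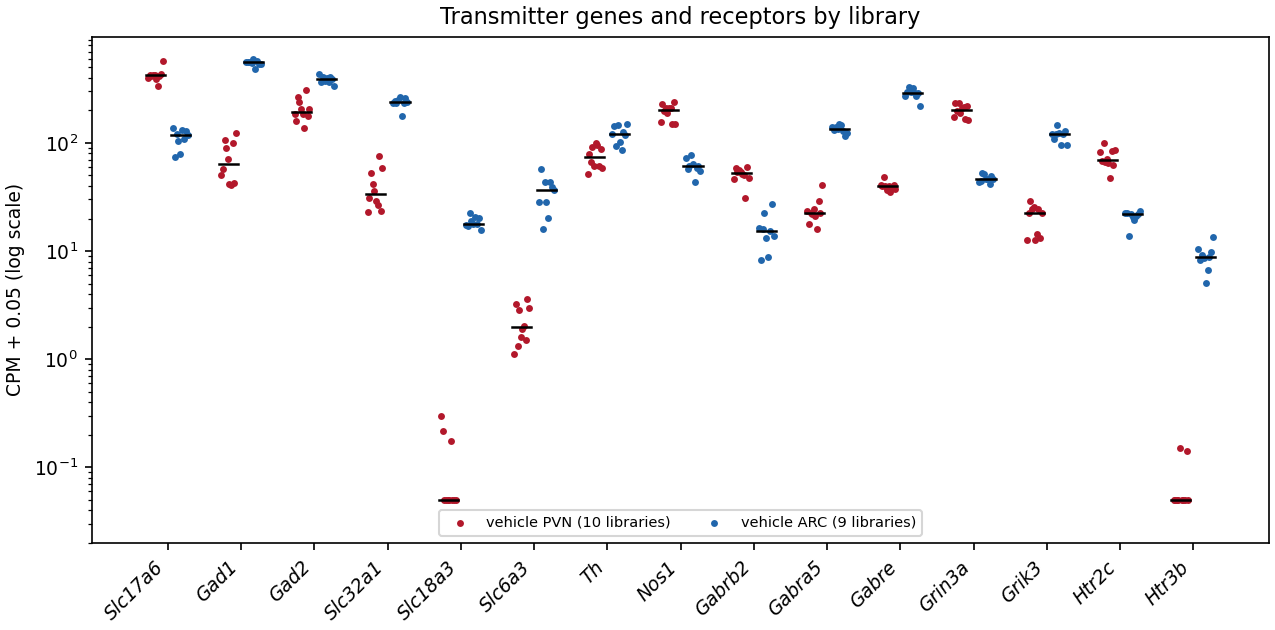
Each point is 1 library, its CPM plus 0.05 on a log axis (y axis) for 15 transmitter and receptor genes (x axis); red points are the 10 PVN libraries, blue points the 9 ARC libraries, and black bars the medians. Slc17a6, Nos1, Gabrb2, Grin3a and Htr2c are higher in every PVN library, and Gad1, Gad2, Slc32a1, Slc18a3, Slc6a3, Gabra5, Gabre, Grik3 and Htr3b in every ARC library, while Th overlaps.

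Receptors for these transmitters differed by subunit. GABA-A receptors are pentamers whose alpha subunit sets their location and drug response. Gabra5, an alpha subunit, ran from 16 to 41.1 CPM (median 22.4) in PVN and from 115 to 148 CPM (median 135) in ARC. It was higher in every ARC library (-2.50 ± 0.12), as was the epsilon subunit gene Gabre (39.6 ± 3.58 against 287 ± 32.6 CPM). The beta subunit gene Gabrb2 was higher in PVN (51 ± 8.37 against 15.7 ± 6.13 CPM, 1.69 ± 0.18). Of 19 GABA and glycine receptor genes, 10 were called higher in PVN and 7 in ARC (89.5% called, against 43.1% of all genes tested).

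Among 24 glutamate receptor genes 8 were called in each direction (66.7%), with a median log2 difference of -0.01. The NMDA receptor subunit Grin3a (199.8 ± 26.5 against 46.9 ± 3.62 CPM) and the metabotropic receptor Grm3 (37.5 ± 4.78 against 7.12 ± 1.74 CPM) were past 2-fold in PVN, and the kainate receptor subunit Grik3 (20.1 ± 6.26 against 118 ± 15.8 CPM) in ARC. The 33 monoamine and acetylcholine receptors gave 13 calls for PVN and 12 for ARC (75.8%). Htr2c, the serotonin receptor through which several appetite drugs act, was higher in PVN (73.1 ± 14.5 against 20.8 ± 2.87 CPM, 1.80 ± 0.11), as was the muscarinic receptor Chrm2 (1.74 ± 0.12). Chrm3 (-1.93 ± 0.18) and the dopamine receptor Drd2 (-1.71 ± 0.15) were higher in ARC.

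Ion channel families were called in both directions. The 68 potassium channel genes gave 23 calls for PVN and 20 for ARC, and 9 passed 2-fold (4 and 5), which is 63.2% called and 13.2% past 2-fold, against 43.1% and 5.6% of all genes tested. Kcnh1, the voltage-gated channel Eag1, ran from 112 to 195 CPM (median 178) in PVN and from 15.4 to 23.5 CPM (median 17.7) in ARC, without overlap (3.13 ± 0.11). Kcnmb4, the beta subunit of the large-conductance calcium-activated channel, was also higher in PVN (96.2 ± 10.4 against 19.4 ± 2.35 CPM, 2.31 ± 0.08), as was the inward rectifier Kcnj12 (2.54 ± 0.18). Kcnab1, which speeds channel inactivation, was higher in ARC (12.5 ± 3.86 against 60.8 ± 7.92 CPM). Of the cation channels, Trpc4 (-1.55 ± 0.10) and Trpc6 (-2.08 ± 0.15) were past 2-fold in ARC, and the calcium channel subunit Cacna2d1, the gabapentin target, in PVN (1.19 ± 0.06).

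Of 19 genes of leptin and insulin signalling, Lepr and Igf1r among them, 9 were called higher in ARC and 3 in PVN, and 6 passed 2-fold (5 in ARC and Igf1r in PVN), 31.6% against 5.6% of all genes tested. Socs3, a feedback inhibitor induced by leptin, ran from 0.691 to 3.01 CPM (median 2.24) in PVN and from 9.26 to 23.1 CPM (median 18.6) in ARC, without overlap (-3.22 ± 0.20). Irs4, a hypothalamic insulin receptor substrate, was higher in ARC by 3.59-fold and the ubiquitin ligase component Asb4 by 4.74-fold. Foxo1, the transcription factor that insulin excludes from the nucleus, followed (-1.42 ± 0.10). Among the 7 listed members without a call were the receptor-associated kinase Jak2 (log2 difference -0.01), the phosphatase Ptpn11 (0.00) and the kinase subunit Pik3ca (0.03).

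Genes that mature peptides leaned to PVN, 11 of 17 called there and 4 in ARC (88.2%, against 43.1% of all genes tested). The convertases Pcsk1, which ran from 253 to 698 CPM (median 409) in PVN and from 117 to 177 CPM (median 146) in ARC, and Pcsk2 (406 ± 42.1 against 176 ± 16.4 CPM) were past 2-fold in PVN. Pcsk1n, whose product inhibits the first of them, was called higher in ARC (1384 ± 227 against 2417 ± 229 CPM), as was chromogranin A, Chga (-0.58 ± 0.14). Of the imprinted genes, 9 of 29 were called in PVN and 7 in ARC, or 55.2%, not far above the 43.1% of all genes tested. The cell-cycle regulator Plagl1 (69.2 ± 8.25 against 485 ± 66.4 CPM) was past 2-fold in ARC and Mest (78.8 ± 15.1 against 29 ± 5.8 CPM) in PVN, and Magel2, lost in Prader-Willi syndrome, was called higher in ARC (-0.99 ± 0.07).

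Blood vessel genes also set the nuclei apart. The PVN is known as one of the most densely vascularised parts of the brain. All 10 endothelial markers were called higher in PVN and all 10 passed 2-fold, with a median log2 difference of 1.98, and their summed level ran from 403.6 to 616 CPM in PVN and from 113 to 159 CPM in ARC. Cldn5, the tight-junction claudin of brain capillaries, ran from 27.9 to 77.1 CPM (median 60.1) in PVN and from 8.64 to 14.7 CPM (median 9.84) in ARC. Slco1a4, an organic anion transporter of the blood-brain barrier, stood at 126 ± 38.7 CPM in PVN against 26.1 ± 1.52 in ARC, and Tek, the angiopoietin receptor, at 24.5 ± 3.57 CPM in PVN against 5.71 ± 1.57 in ARC. No endothelial group overlapped. All 9 mural cell markers were also called higher in PVN, 3 past 2-fold, with a median of 1.32, and the pericyte gene Rgs5 ran from 163 to 269.7 CPM (median 219) in PVN and from 49.4 to 85.3 CPM (median 52.8) in ARC. In such bulk tissue, more cells of a type and more RNA per cell cannot be told apart.

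Other cell types differed less. Among mature oligodendrocyte markers 8 of 12 were called higher in PVN (66.7%, against 43.1% of all genes tested) and none past 2-fold (median 0.56). Without PVN library 10 these were 6 of 12, or 50%, near the 48% of all genes in that fit. Summed levels overlapped, at 971 to 1405 CPM in PVN and 501.6 to 1363 in ARC. Opalin, a myelin membrane gene, stood at 3.74 ± 1.53 CPM in PVN against 1.51 ± 1.12 in ARC. Astrocyte markers were called higher in PVN for 7 of 12 (58.3%, median 0.32), among them the glutamate transporter Slc1a3 (793 ± 145 against 432 ± 43.8 CPM) and Agt, the angiotensin precursor (324 ± 77.8 against 151 ± 39.5 CPM), while Slc1a2 (746 CPM in PVN and 732 in ARC) was not called. Without PVN library 10, 6 astrocyte markers were called in PVN and 1 in ARC (58.3%, against 48% of all genes). Microglia markers gave 5 of 12 calls, all for ARC, a share (41.7%) near the 43.1% of all genes tested, led by the complement gene C1qa (23.3 ± 5.79 against 38.3 ± 4.51 CPM), with Cx3cr1 (23.9 CPM in PVN and 26.9 in ARC) and P2ry12 (19.5 CPM in PVN and 19.3 in ARC) not called; summed, the list stood at 268.5 to 312.6 CPM in 9 PVN libraries, 494 CPM in PVN library 10 and 347 to 438 CPM in ARC. Without that PVN library 9 of the 12 were called higher in ARC, 75% against 48% of all genes tested in that fit. PVN library 10 was highest in PVN for P2ry12 (41.8 CPM, against at most 20.5 CPM in the other 9), Slc1a3 and Slco1a4. Red blood cell genes summed to 35.02 to 66.7 CPM in PVN and 4.97 to 63.5 CPM in ARC, and 3 of 5 were called higher in PVN (60%, against 43.1% of all genes tested). Without library 1 of both nuclei 1 of the 5 was called there (20%, against 41% of all genes). The part that these cell types have in the neuronal differences was not tested. In 1 fit with an oligodendrocyte marker score as a covariate, 3857 genes were called in place of 5806, and 600 of the 754 genes past 2-fold still passed 2-fold. That score covers no other cell type, and all 12 of its markers were higher in PVN. The fit therefore cannot separate the cell mix from the nucleus.

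**Figure D4:**
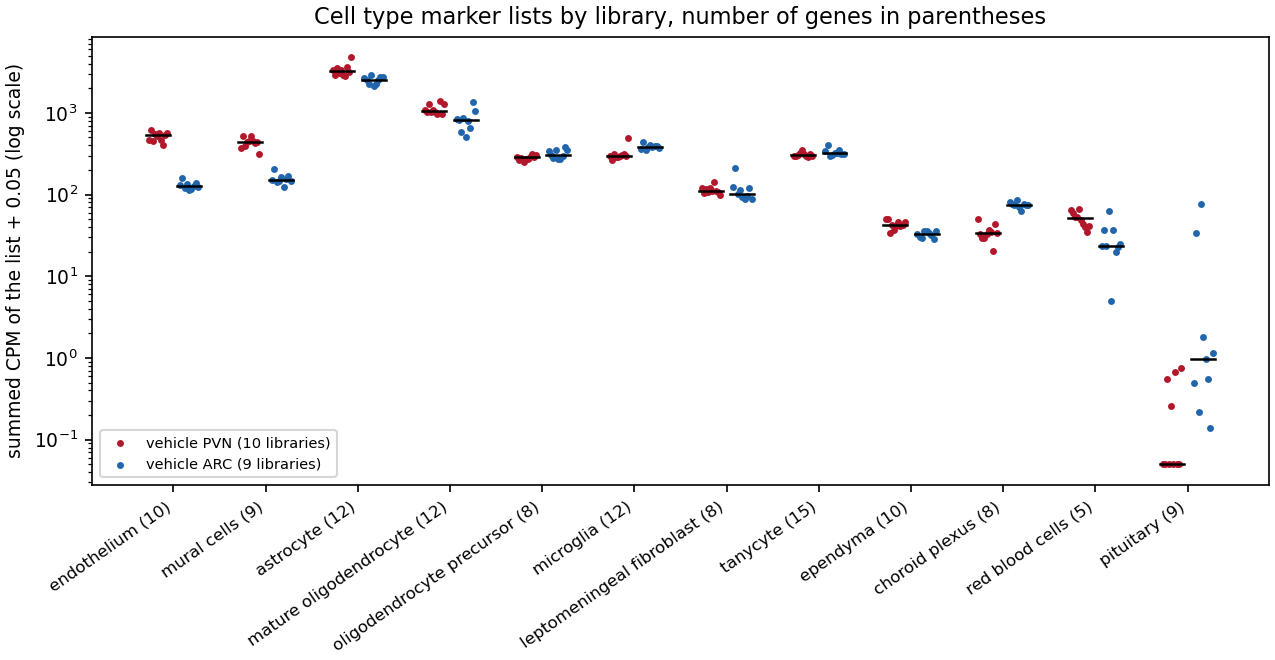
Each point is 1 library, the summed CPM of a cell type marker list plus 0.05 on a log axis (y axis) for 12 lists (x axis); red points are the 10 PVN libraries, blue points the 9 ARC libraries, and black bars the medians. Endothelial and mural sums lie higher in every PVN library and the choroid plexus sum in every ARC library, and the other lists overlap; 2 ARC libraries hold pituitary genes at 34.2 and 76.6 CPM.

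Markers of tanycytes, the ventricle-lining cells of the ARC floor that activate thyroid hormone, were called in both directions. Of 13 tested, 6 were called in each (92.3% called, against 43.1% of all genes tested). Dio2, the deiodinase that makes active thyroid hormone, ran from 0.502 to 4.84 CPM (median 1.31) in PVN and from 6.15 to 21.3 CPM (median 12.9) in ARC, without overlap (FDR = 1.8e-07). Gpr50 (0.959 ± 0.606 against 13.4 ± 2.41 CPM), the Wnt antagonist Frzb (1.14 ± 0.688 against 8.44 ± 1.62 CPM) and the thyroid hormone-binding Crym (0.427 ± 0.551 against 4.24 ± 1.27 CPM) were also past 2-fold in ARC. Mest, Nes (1.10 ± 0.16) and Lhx2 (1.05 ± 0.13), which other cells make too, were called in PVN. Which cells the differences came from was not tested for the markers of either side. Slco1c1, a thyroid hormone transporter of capillaries and astrocytes, was higher in PVN (76.1 ± 10.9 against 19.1 ± 2.33 CPM). The choroid plexus list rested on Clic6, higher in ARC (9.89 ± 3.7 against 40.5 ± 4.13 CPM), as its defining Ttr was low (1.95 CPM in PVN and 4.8 in ARC, not called; FDR = 0.00202 without PVN library 1).

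Genes of neighbouring areas, which capture beside a nucleus would bring in, were read as lists. Of 8 ventromedial genes 5 were called in PVN and 3 in ARC, of 7 suprachiasmatic genes 1 and 4, and of 10 thalamic genes 4 and 4. Past 2-fold were 3 and 1 of the ventromedial, 0 and 2 of the suprachiasmatic and 2 and 1 of the thalamic genes. Of 7 genes of the preoptic and anterior hypothalamus and the bed nucleus, 4 were called in PVN and 3 in ARC, and 6 passed 2-fold (4 and 2), 85.7%. Of 4 lateral hypothalamic genes 1 was called in PVN and 2 in ARC, both past 2-fold, and of 4 dorsomedial genes 1 and 1, that in PVN past 2-fold. All these shares past 2-fold, 25% or more, stood above the 5.6% of all genes tested. Fezf1, a gene of the ventromedial nucleus, was higher in PVN (8.28 ± 2.84 against 0.42 ± 0.476 CPM), as was Adcyap1, the gene of the stress peptide PACAP (33.9 ± 10.7 against 5.55 ± 2.73 CPM). Zic1, of thalamus and anterior areas, ran from 41.4 to 73.8 CPM (median 46.4) in PVN and from 2.04 to 34.1 CPM (median 3.62) in ARC, with ARC library 8 highest (2.76 ± 0.45; 3.75 ± 0.17 without it). In that ARC library Nrn1 stood at 18.5 CPM, against at most 5.74 CPM in the other 8, and Opalin at 4.39 CPM, against at most 1.67 CPM. Six6 (5.26 ± 2.24 against 63 ± 11.2 CPM) and Six3 (24 ± 6.61 against 90.4 ± 11.3 CPM), homeobox genes of the ventral and anterior hypothalamus including the suprachiasmatic nucleus, were higher in ARC. No Hox gene, a mark of hindbrain and spinal cord, passed the filter on low counts.

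Activity-induced genes leaned to PVN: 11 of 18 immediate early genes were called there and 1 in ARC, with a median log2 difference of 0.71. That is 66.7% called, against 43.1% of all genes tested. Without library 1 of both nuclei 9 were called in PVN and 2 in ARC (61.1%, against 41% of all genes), with a median of 0.58. Fosl2 ran from 60.5 to 204 CPM (median 98) in PVN and from 12.2 to 25.1 CPM (median 21) in ARC, without overlap (2.47 ± 0.21). Klf4 (12.7 ± 3.67 against 3.08 ± 1.19 CPM) was past 2-fold as well. Nr4a1 was called with wide spread (59.2 ± 35.1 against 18.9 ± 4.65 CPM, FDR = 3.1e-04). Nr4a2 was the one called higher in ARC with all 19 libraries (3.98 ± 5.53 CPM in PVN against 14.5 ± 3.44 in ARC, -2.07 ± 0.39; -2.68 ± 0.19 without PVN library 3, the highest in PVN). Klf4 is also an endothelial gene, and endothelial markers moved the same way; its part was not tested. Among 18 glucocorticoid-responsive genes 7 were called in PVN and none in ARC, led by Pdk4 (1.12 ± 0.22) and Dusp1 (0.51 ± 0.13), and Fkbp5 was not called (60.4 CPM in PVN and 74.7 in ARC). That share, 38.9%, is under the 43.1% of all genes tested, and library 1 of each nucleus had the highest sum of the list, at 1226 CPM in PVN (others at most 879) and 1043 CPM in ARC (others at most 795). Without both libraries 8 of the 18 were called in PVN (44.4%, against 41% of all genes), and without ARC library 1 alone 10 (55.6%, against 41.5%). The 21 clock genes gave 4 calls for PVN and 8 for ARC, none past 2-fold (57.1% called, against 43.1% of all genes tested). Without library 1 of both nuclei 4 were called in PVN and 5 in ARC, 42.9%, near the 41% of all genes in that fit.

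General cell machinery differed by small factors. None of 41 synaptic vesicle genes passed 2-fold, although 25 were called higher in PVN and 6 in ARC (median 0.20). That is 75.6% called, against 43.1% of all genes tested, and 63.4% against 41.5% without ARC library 1. Snap25 was among those higher in PVN (784 ± 49.5 against 577 ± 43.5 CPM), but it was not called in treated libraries (0.16 ± 0.16, FDR = 0.401). Syt1 was not called in vehicle libraries (432 CPM in PVN and 430.1 in ARC). Of 77 cytosolic ribosomal protein genes 22 were called in ARC and 1 in PVN, none past 2-fold (median -0.18); the share called, 29.9%, is under the 43.1% of all genes tested. Summed, PVN library 10 stood at 29043 CPM over 82 genes, against 14106 to 19098 CPM in the other PVN libraries and 16326 to 22836 CPM in ARC. Without that library 67 of the 77 were called higher in ARC and none in PVN (87%, against 48% of all genes; median -0.31), so this count rested on 1 library. Of 82 nuclear genes of oxidative phosphorylation 13 were called, 15.9%, also under the background, with 2 past 2-fold, the muscle-type isoforms Cox7a1, higher in PVN (3.51 CPM in PVN and 0.843 in ARC), and Cox6a2, higher in ARC (0.166 CPM in PVN and 5.93 in ARC). PVN library 10 was highest there too, with a sum of 17649 CPM over 85 genes, against at most 13826 CPM in the other 9 and 12112 CPM in ARC. Without it 11 of the 82 were called in PVN and 5 in ARC (19.5%). Cholesterol synthesis genes gave 12 of 21 calls for PVN and 1 for ARC, all under 2-fold by the test.

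Cell-surface and matrix genes differed in both directions. Of 60 axon guidance genes 25 were called in PVN and 10 in ARC, and 13 passed 2-fold (8 and 5), 21.7%. The secreted guidance cues Sema3c, which ran from 63.1 to 113 CPM (median 82.6) in PVN and from 5.41 to 12.6 CPM (median 7.06) in ARC, and Slit2 (168 ± 33.3 against 26.7 ± 2.5 CPM) and the receptor Ephb1 (81.8 ± 12.6 against 11.3 ± 2.34 CPM) were higher in PVN. The ephrin Efnb2 (23 ± 3.06 against 61.9 ± 8.51 CPM) and the netrin receptor Unc5d (107 ± 16 against 278 ± 35.4 CPM) were higher in ARC. Of 47 collagens and laminins, Lamb2, of vessel basement membranes, was higher in PVN (1.38 ± 0.11), and Col24a1 (4.91 ± 1.78 against 51.7 ± 15.7 CPM) and Lamb3 (4.4 ± 1.24 against 42.5 ± 7.15 CPM) in ARC. Pcdh20, an adhesion protein of the protocadherin family, was higher in ARC (24.5 ± 8.88 against 132 ± 24.8 CPM).

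**Figure D5:**
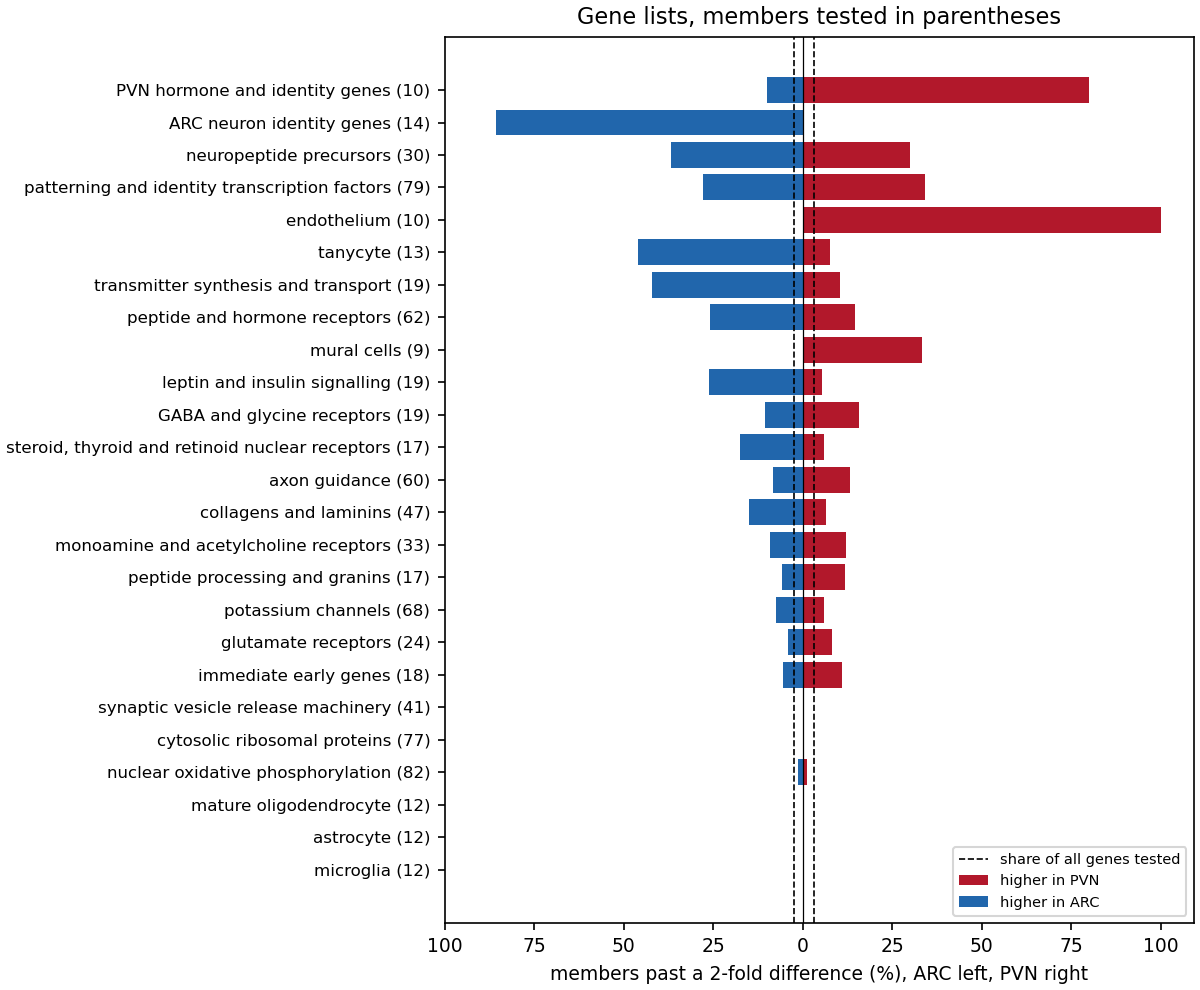
Bars give the percent of tested members of 25 gene lists (number tested in parentheses) that passed a 2-fold difference, to the right for higher in PVN (red) and to the left for higher in ARC (blue); dashed lines are the shares of all genes tested, 3.14% and 2.46%. Identity, peptide, patterning, endothelial and transmitter lists reach far past the lines, and vesicle, ribosomal, oligodendrocyte, astrocyte and microglia lists have no bar.

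The contrast was then read in libraries it had not used, the 10 PVN and 10 ARC libraries from mice given IP118/PY115. There 766 of 13533 genes passed 2-fold (5.66%), 406 higher in PVN and 360 in ARC. Of the 754 genes past 2-fold in vehicle, 738 were tested, 737 had the same direction and 633 passed 2-fold again, which is 84% of the vehicle list and 82.6% of the treated list. The log2 difference there was 9.74 for Crh, 5.06 for Trh, -7.83 for Agrp and -6.95 for Pomc. A test of whether the nuclei differed by another amount in treated than in vehicle mice called 4 of 13979 genes (0.0286%; 857 had an unadjusted p under 0.05). They were Tmem200a (-2.08 in vehicle and -1.43 in treated mice), Tsc22d1 (0.21 and 0.71), Apobec1 (-0.20 and 1.29) and Appl2 (-0.14 and -0.59; not called in vehicle, but with FDR = 0.0254 without PVN library 10 and FDR = 0.0482 without PVN library 7), named after their values were seen, and Tmem200a alone was past 2-fold in vehicle. Library numbers, whose meaning the labels do not give, were split by nucleus: 5465 to 5482 for 7 PVN libraries, 5509 to 5522 for 7 ARC libraries, then 5553 to 5555 for PVN and 5556 and 5557 for ARC. Any effect of number order and the nucleus therefore cannot be told apart. Among the last 5 libraries alone, 912 of 13845 genes were called (6.59%), and all 754 genes past 2-fold kept their direction, 588 of them called. These 5 are among the 19 libraries that chose the 754 genes, so the kept direction is not independent support.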

How the data were processed

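RNA from laser-captured tissue (NucleoSpin RNA) was made into TruSeq Stranded mRNA libraries, per the labels' protocols. Per the submitters' processing notes, the authors used bcl2fastq 2.20.0.422, STAR 2.5.2a and GRCm38, and deposited raw read counts per Ensembl gene. The counting tool, its strand setting and the annotation are not given in the sources used here. Of 21935 gene IDs 21858 matched GENCODE vM21 symbols.

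From these counts edgeR 4.0.16 (R 4.3.3) kept genes by filterByExpr (at least 10 counts), scaled by TMM and fitted robust quasi-likelihood models to the 19 vehicle libraries. glmTreat tested against 2-fold, and a model of the 39 vehicle and treated PVN and ARC libraries tested whether treatment altered the difference. DESeq2 1.42.0 and limma 3.58.1 were alternatives. The scripts were tested on simulated counts. Genes were named by a rule: the 15 largest non-overlapping differences of at least 20 CPM in each direction, a set of feeding and hormone genes, and up to 4 called and 5 uncalled genes per list. Others, such as Gad1, Gad2, Slc32a1 and the 4 treatment-dependent genes, were named after their values were seen, and some genes are not reported here. The members, lists and tests were chosen with earlier results of these data known, and the potassium channel, collagen, ribosomal and oxidative phosphorylation name patterns were narrowed after they took in other genes.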

Additional observations from a re-analysis of the deposited data

Results flagged for a closer look

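In each nucleus the highest or lowest library was checked for a gap to the next library that took up more of the group's range than Dixon's 95% critical value allows. Of 352 groups of values, 1 for each named gene and nucleus and for the totals, 61 held such a library. Chance flags about 1 in 20 only where values are normally distributed, which CPM near 0 are not. Where all other libraries were at 0, as for Ucn3, C1ql4 and Tyrp1 in ARC, a few counts in 1 library set the flag. The 61 therefore cannot be read against that rate. The groups share libraries, so the flags are not independent.

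PVN library 10 was picked out most often. PVN library 10 was highest, with 1058 CPM of Slc1a2 (others at most 824), 41.8 CPM of P2ry12 (others at most 20.5), 228 CPM of Slco1a4 (others at most 134), 577 CPM of Slc17a6 (others at most 431) and 41.1 CPM of Gabra5 (others at most 28.8). It was also highest with 506 CPM of Agt (others at most 379.9), 73.8 CPM of Zic1 (others at most 52), 1179 CPM of Slc1a3 (others at most 824), 573 CPM of Sst (others at most 319) and 18.7 CPM of Clic6 (others at most 12). It was also highest with 62.3 CPM of Adcyap1 (others at most 37.6) and 55.7 CPM of Gal (others at most 43.6). The lowest of its nucleus there were 287 CPM of Pcsk2 (others at least 409). PVN library 8 was highest, with 26.1 CPM of Lhx2 (others at most 18.6), 8.2 CPM of Cckbr (others at most 5.55), 108 CPM of Rgs10 (others at most 76.9), 1.68 CPM of Bsx (others at most 0.702) and 10.9 CPM of Esr2 (others at most 6.71). It was also highest with 233 CPM of Chga (others at most 184). Low in it were 30.7 CPM of Gabrb2 (others at least 46.3).

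PVN library 1 was highest, with 161 CPM of Igf1r (others at most 135), 886 CPM of Tsc22d1 (others at most 687), 4.84 CPM of Dio2 (others at most 2.04), 98.6 CPM of Fkbp5 (others at most 71.7) and 7.92 CPM of Ttr (others at most 2.45). The lowest of its nucleus there were 16.4 CPM of Bhlhe22 (others at least 28.3). PVN library 3 was high in genes that are otherwise higher in ARC. PVN library 3 was highest, with 19.6 CPM of Nr4a2 (others at most 3.33), 48.2 CPM of Gabre (others at most 41.1), 7.39 CPM of Rxfp1 (others at most 1.26), 10.2 CPM of Npy (others at most 3.93) and 1.78 CPM of Crym (others at most 0.823). The lowest of its nucleus there were 15.3 CPM of Fezf2 (others at least 22.5). ARC library 4 was highest, with 0.41 CPM of Uncx (others at most 0.185), 24.3 CPM of Slco1c1 (others at most 19.95), 0.164 CPM of Ucn3 (others at 0), 0.164 CPM of C1ql4 (others at 0) and 18 CPM of Ttr (others at most 4.64).

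ARC library 8 was high in genes that are otherwise higher in PVN. ARC library 8 was highest, with 41.1 CPM of Rgs8 (others at most 17.2), 34.1 CPM of Zic1 (others at most 5.82), 18.5 CPM of Nrn1 (others at most 5.74) and 4.39 CPM of Opalin (others at most 1.67). Low in it were 10.5 CPM of Rarb (others at least 14.7). ARC library 1 was highest, with 0.267 CPM of Rufy4 (others at most 0.0877), 1.07 CPM of Sim1 (others at most 0.371) and 159 CPM of Fkbp5 (others at most 82). The lowest of its nucleus there were 9.26 CPM of Socs3 (others at least 17.1). ARC library 5 was highest, with 9.3 CPM of Sox14 (others at most 6.72), 1.51 CPM of Esr2 (others at most 0.742) and 0.432 CPM of Dnajc22 (others at most 0.0877). ARC library 6 was highest, with 981 CPM of Agrp (others at most 667). Low in it were 176 CPM of Slc32a1 (others at least 235) and 30.5 CPM of Clic6 (others at least 37.8). ARC library 2 was highest, with 85.3 CPM of Rgs5 (others at most 61.9) and 481 CPM of Chga (others at most 293).

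ARC library 9 was highest, with 225 CPM of Avp (others at most 50.3) and 0.185 CPM of Tyrp1 (others at 0). ARC library 3 was lowest, with 13.9 CPM of Htr2c (others at least 19.5). PVN library 5 was highest, with 9.24 CPM of Grpr (others at most 5.56). PVN library 6 was highest, with 204 CPM of Fosl2 (others at most 134). PVN library 7 was highest, with 0.249 CPM of Foxd2 (others at 0). PVN library 9 was highest, with 0.274 CPM of Sox14 (others at 0).

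A test of the difference itself, over the 39 PVN and ARC libraries, found that the nuclei differed by another amount in treated than in vehicle mice for Apobec1 (log2 1.49), Tmem200a (log2 0.66), Appl2 (log2 -0.45) and Tsc22d1 (log2 0.51), the treated difference minus the vehicle difference. Vehicle library 1 of each nucleus, which lay on the treated side, was in this test.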

How the results depend on the processing

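All 754 genes past 2-fold had the same direction in each vehicle alternative that tested them (645 to 754 of them), and 737 of 738 did in treated libraries. The vehicle alternatives reuse libraries that chose these genes, so they show dependence on processing only. With only the 5 libraries numbered 5553 to 5557, calls fell to 912 (435 and 477, PVN first) and genes past 2-fold to 135 and 140; fewer libraries entered that fit. With a mature oligodendrocyte score as covariate 3857 genes were called (2075 and 1782), and the cause was not tested. Leaving out each library in turn gave 5475 to 6439 calls, 2843 to 3188 for PVN and 2536 to 3251 for ARC, and 380 to 437 and 320 to 344 past 2-fold. DESeq2 called 6356 genes, limma with quality weights 7213, the joint fit of 59 libraries 6610 and an FDR under 0.01 4342. Of the named genes called in at least 1 of the fits compared, Syt1 (-0.18), Opalin (-0.43) and Apobec1 (1.29) changed direction in treated libraries, and Dusp1 (-0.087) in libraries 5553 to 5557; the cause was not tested. In treated libraries 5 more, called in neither fit, also changed sign (Slc1a2, Pik3ca, Cx3cr1, Nr3c1 and Jak2). The labels tie no library to an animal, but 5 vehicle pairs have library numbers that differ by 44 between the nuclei, as do all 10 treated pairs. No such pair joined a vehicle with a treated library. Deviations from the nucleus means correlated within those vehicle pairs at -0.051 to 0.105, highest for library 1 of each nucleus. Correlations this low cannot show whether a pair shares an animal. The main fit used no pairing, and pairing by number stays possible. A replicate block over these 5 pairs, chosen after seeing the data, called 4957 genes (2570 and 2387; 371 and 291 past 2-fold), and the same 10 libraries without it 5036 (2574 and 2462; 347 and 290). Depth limits genes near 0 in 1 nucleus, such as Crh and Ucn3, whose fitted differences rest on a few counts.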

Other observations

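RGS proteins shorten G-protein signalling, and each receptor system uses its own members. Of 18 RGS genes tested, 6 were called higher in PVN and 5 in ARC (61.1%, against 43.1% of all genes tested), and 4 passed 2-fold (22.2%, against 5.6%). Rgs8 stood at 56.1 ± 8.78 CPM in PVN against 16.6 ± 9.57 in ARC (1.74 ± 0.21), and Rgs10, an abundant member in microglia and neurons, stood at 67.2 ± 16.3 CPM in PVN against 21 ± 2.87 in ARC (1.67 ± 0.11). Rgs14 stood at 2.36 ± 0.959 CPM in PVN against 14.9 ± 3.02 in ARC (-2.74 ± 0.19). The pericyte gene Rgs5 was the other member past 2-fold, in PVN. Caprin2, an RNA-binding protein that regulates the tail of vasopressin transcripts, stood at 86.2 ± 26 CPM in PVN against 25.2 ± 4.44 in ARC (1.78 ± 0.16), one of 10 called higher in PVN among 14 magnocellular and water balance genes.

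Clock genes set daily rhythms, and without library 1 of both nuclei their share called (42.9%) was near that of all genes (41%). Among the 21, Arntl (19.1 ± 2.18 against 27.8 ± 3.68 CPM, PVN first), Per3 (50.1 ± 6.5 against 68.6 ± 6.11 CPM) and the output factor gene Hlf (51.4 ± 4.26 against 88.9 ± 15.2 CPM) were called higher in ARC with all 19 libraries. Cry2 (104 ± 14.2 against 77.6 ± 8.14 CPM) and Bhlhe41 (94.4 ± 12.6 against 60.1 ± 5.15 CPM) were called higher in PVN. Of 57 cadherins and protocadherins 18 were called higher in PVN and 15 in ARC, with Cdh7 (1.66 ± 0.13), Celsr1 (2.14 ± 0.20) and Fat1 (1.90 ± 0.12) past 2-fold in PVN.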
